A study of Mus musculus with 9 samples.

Results

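The mouse Lrrc genes (leucine-rich repeat containing) were followed in the testis of mice with and without RFX2, a transcription factor that binds the X-box motif and is abundant in spermatocytes and round spermatids. Members were all rows of the count table whose GENCODE M21 symbol begins with Lrrc and a digit and whose counts summed to 10 or more over the 9 libraries, leaving out Lrrc6 and Lrrc23. The rule found 59 genes among the 23074 in the table, of which 51 had enough reads for the test and 8 did not. Total RNA from decapsulated testes of 9 mice was sequenced at postnatal days 29 to 30, with 1 library from each of 5 wild type and 4 Rfx2-/- animals. All 9 mice were of a mixed C57BL/6, 129/Sv and FVB/N background. The mutant allele lacks exon 7, which encodes most of the DNA-binding domain. It was removed with a Cre driven by the beta-actin promoter and passed on through the germ line, so the mutation is carried by all cells and not only by germ cells. Because whole testis was used, fewer cells of a type and less RNA per cell cannot be told apart in any value given here.

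A leucine-rich repeat is a short stretch of residues that folds into a strand and a turn, and repeats stacked side by side form a curved surface to which other proteins bind. The symbol Lrrc records that shared fold and not a shared function. Its holders include the subunits of the volume-regulated anion channel (LRRC8), auxiliary subunits of potassium channels, synaptic adhesion proteins and proteins of centrioles, cilia and sperm tails. In the testis, the spermatid builds its flagellum with much of the machinery of motile cilia, many genes of which carry X-box motifs in their promoters.

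Sequencing depth, as summed counts, ranged from 13574764 to 15193330 except in Rfx2-/- replicate 1, which held 28800855. Reads from the remaining exons of the targeted gene are counted in both genotypes, and Rfx2 was at 471 to 623 CPM (counts scaled to library size) in wild type and at 61.5 to 199 CPM in Rfx2-/- testis (log2 fold change -1.91, SE 0.28, adjusted p 7.81e-04 by the edgeR quasi-likelihood test). Wild type replicate 3 and Rfx2-/- replicate 2 departed from the other libraries of their genotype, and several of the values that turn on them are given with and without them. The median of the tested Lrrc genes, relative to the mean of wild type on the log2 scale, was -0.23 in wild type replicate 3 and between 0.00 and 0.10 in the other 4 wild type libraries. In Rfx2-/- replicates 1 to 4 it was -0.06, -0.25, -0.17 and -0.06. Over all genes tested the median was -0.003 in wild type replicate 3 and -0.02 in Rfx2-/- replicate 2.

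Levels of the Lrrc genes were compared per length, as RPKM (read counts scaled to library size and exon length), and covered a wide range. In wild type testis, 41 of the 59 were at 1 RPKM or more, 29 at 10 or more and 5 at 100 or more, and these 5 held 52.0% of the summed RPKM of all 59. Lrrc46, which encodes a protein of the sperm tail, stood first at 521 ± 52.6 RPKM (SD, n = 5). Lrrc51, the counterpart of the leucine-rich repeat part of the human deafness gene LRTOMT, followed at 212 ± 37.4 RPKM and Lrrc27 at 210 ± 27.0 RPKM, and the spread of these 2 neighbours was far wider than the gap between them. Lrrc34 at 135 ± 22.8 RPKM and Lrrc18, a gene transcribed mainly in the testis, at 131 ± 25.8 RPKM could not be ordered either. In Rfx2-/- testis Lrrc46 was still first, at 367 ± 117 RPKM (SD, n = 4), while Lrrc34 was at 37.1 ± 7.06 RPKM.

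**Figure D1:**
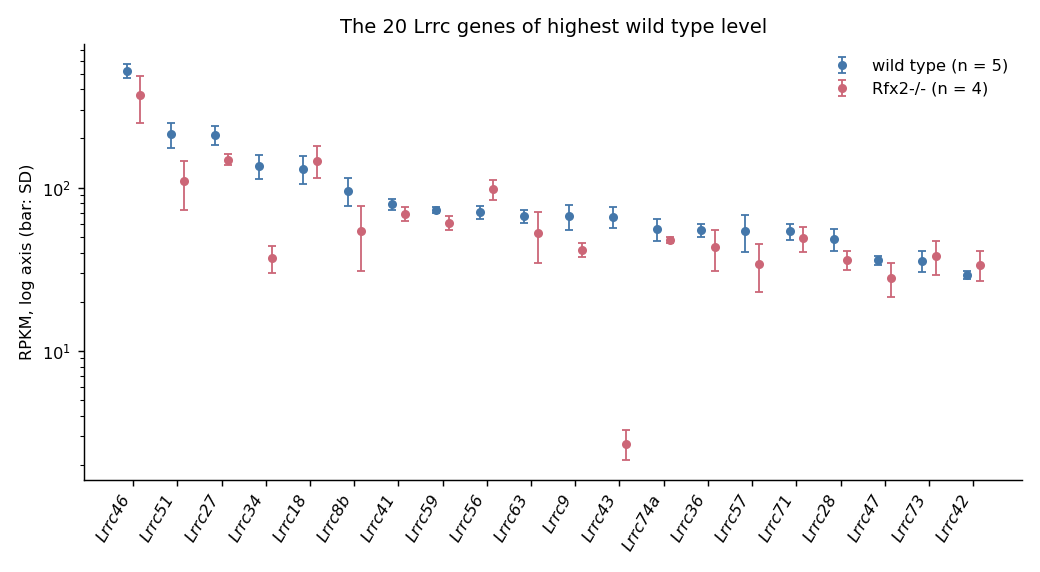
Level in RPKM on a log axis of the 20 Lrrc genes of highest wild type level, ordered by that level, as mean and SD of 5 wild type (blue) and 4 Rfx2-/- (red) libraries. For most genes the points of both genotypes lie close together, while Lrrc43 went from 66.2 to 2.70 RPKM and Lrrc34 from 135 to 37.1 RPKM.

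Of the 51 Lrrc genes tested, 4 were lower in Rfx2-/- testis at an adjusted p at or under 0.01 and more than 2-fold, which is 7.84% against 3.68% of all 15613 genes tested. They were Lrrc43, Lrrc55, Lrrc10b and Lrrc34. No Lrrc gene was higher by the same limits, against 0.826% of all genes. Without adjustment, 13 of the 51 had a p under 0.05 and were lower (25.5%, against 13.7% of all genes), and 5 were higher (9.8%, against 13.9%). The 4 were called by edgeR with other scaling, filters and limits and by DESeq2.

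Lrrc43 fell furthest. Its level was 126, 154, 107, 139 and 157 CPM in wild type replicates 1 to 5 and 7.03, 5.95, 4.70 and 4.64 CPM in Rfx2-/- replicates 1 to 4. The lowest wild type library was thus far above the highest mutant one, and the mutant level was 4.08% of wild type (24.3-fold lower, log2 fold change -4.60, SE 0.20, adjusted p 2.14e-08). The gene lies on the plus strand at chr5:123489305-123508205 (GRCm38).

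Lrrc34, whose protein has been described in the nucleolus of pluripotent cells, was the most abundant of the 4 per length. It was at 246, 246, 201, 265 and 320 CPM in the wild type libraries and at 76.3, 84.8, 54.1 and 65.2 CPM in the mutant ones, again without overlap. The difference was 3.65-fold (log2 fold change -1.87, SE 0.18, adjusted p 2.51e-05).

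Lrrc10b, named for its likeness to the cardiac muscle gene Lrrc10, was at 29.4, 24.2, 14.6, 23.0 and 25.9 CPM in wild type and at 6.84, 5.75, 3.61 and 4.38 CPM in Rfx2-/- testis. The lowest of the 5 was replicate 3, and it was still above every mutant library. The fall was 4.5-fold (log2 fold change -2.17, SE 0.24, adjusted p 8.43e-05). Lrrc10 itself had 9 counts in all 9 libraries together.

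Lrrc55, an auxiliary subunit of the large-conductance calcium-activated potassium channel, was a gene of low level in both genotypes. It was at 5.81, 7.35, 2.19, 4.64 and 2.88 CPM in wild type and at 0.597, 0.134, 0.613 and 0.0654 CPM in Rfx2-/- testis, where replicates 2 and 4 held 2 and 1 reads. All wild type libraries were above all mutant ones, but wild type itself ranged more than for the other 3 genes. The difference was 11.8-fold (log2 fold change -3.56, SE 0.53, adjusted p 7.82e-04).

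**Figure D2:**
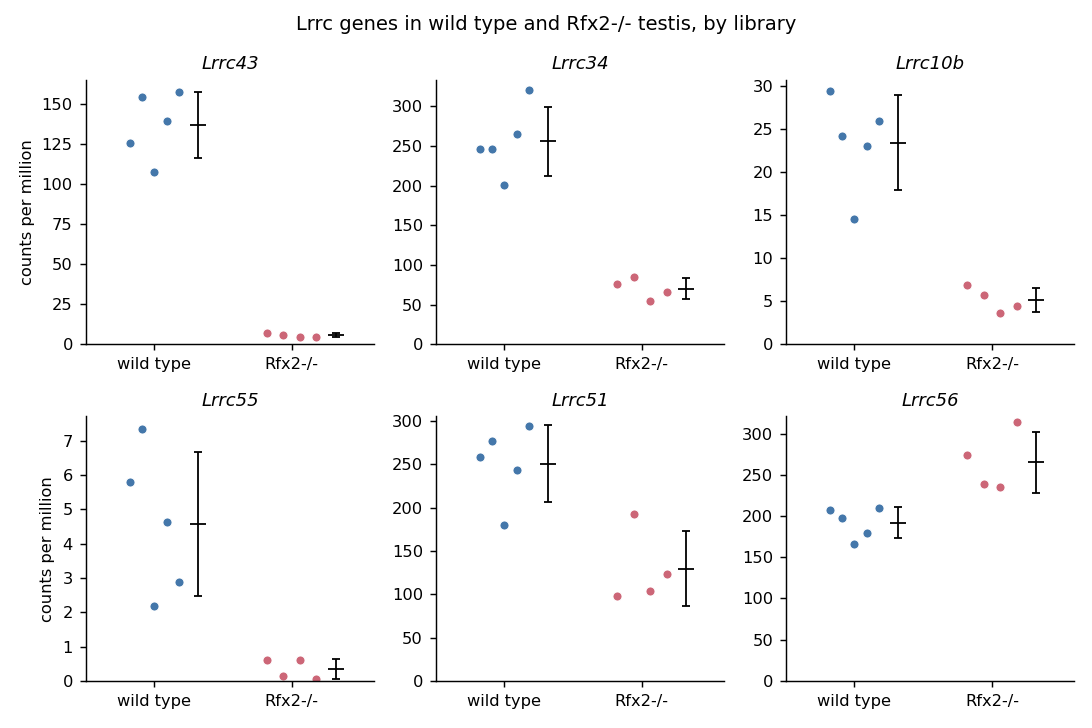
CPM in each library of the 4 Lrrc genes called lower and of Lrrc51 and Lrrc56, with wild type in blue (n = 5) and Rfx2-/- in red (n = 4). Points are libraries and the bars to their right are the mean and SD. The genotypes are apart for Lrrc43, Lrrc34, Lrrc10b and Lrrc55, meet for Lrrc51, where Rfx2-/- replicate 2 lies above wild type replicate 3, and are apart in the other direction for Lrrc56.

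The promoters of these 4 genes are shown because RFX proteins bind the X-box, an inverted repeat of a 6-base half-site. Each line gives the 200 bases that end just before the RefSeq start (GRCm38, 5′ to 3′ on the strand of the gene). Capitals mark matches on either strand to the half-site GTTNCC or to the full motif GTNNCNNNNGNNAC. Where the 2 overlap, as in Lrrc10b and Lrrc49, the longer run is the full motif and its start is also a half-site. Lrrc49 and Lrrc56 are shown with them, as 2 of the genes with an RFX2 peak that were not lower in the mutants. Lrrc73, another such gene, is not shown. A full motif began 248 bases before its start, outside the 200 bases used here. The windows are chr5:123489125-123489324 (plus strand) for Lrrc43, chr3:30647819-30648018 (minus) for Lrrc34, chr19:10457448-10457647 (minus) for Lrrc10b, chr2:85198751-85198950 (minus) for Lrrc55, chr9:60688135-60688334 (minus) for Lrrc49 and chr7:141194943-141195142 (plus) for Lrrc56.
Lrrc43: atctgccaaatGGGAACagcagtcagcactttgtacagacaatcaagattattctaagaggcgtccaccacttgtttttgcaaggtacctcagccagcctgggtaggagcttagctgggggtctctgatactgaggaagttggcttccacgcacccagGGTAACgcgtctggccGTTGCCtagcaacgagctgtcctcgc
Lrrc34: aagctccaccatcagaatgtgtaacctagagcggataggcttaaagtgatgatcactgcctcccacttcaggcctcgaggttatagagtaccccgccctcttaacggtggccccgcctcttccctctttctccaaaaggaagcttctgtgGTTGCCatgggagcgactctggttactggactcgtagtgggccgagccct
Lrrc10b: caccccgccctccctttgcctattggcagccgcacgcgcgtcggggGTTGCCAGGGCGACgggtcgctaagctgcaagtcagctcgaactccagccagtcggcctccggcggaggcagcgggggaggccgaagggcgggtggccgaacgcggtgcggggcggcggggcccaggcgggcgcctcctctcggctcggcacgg
Lrrc55: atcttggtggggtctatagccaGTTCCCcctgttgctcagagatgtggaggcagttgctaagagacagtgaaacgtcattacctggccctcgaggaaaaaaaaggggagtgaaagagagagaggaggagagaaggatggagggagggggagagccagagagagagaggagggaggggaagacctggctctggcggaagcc
Lrrc49: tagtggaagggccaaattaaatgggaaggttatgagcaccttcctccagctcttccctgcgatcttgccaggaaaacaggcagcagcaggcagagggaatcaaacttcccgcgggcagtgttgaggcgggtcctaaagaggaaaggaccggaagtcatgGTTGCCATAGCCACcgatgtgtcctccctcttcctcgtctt
Lrrc56: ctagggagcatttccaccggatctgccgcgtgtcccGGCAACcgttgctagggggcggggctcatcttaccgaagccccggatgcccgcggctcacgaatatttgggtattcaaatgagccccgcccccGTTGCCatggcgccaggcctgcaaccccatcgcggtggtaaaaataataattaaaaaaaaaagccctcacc

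Lrrc43 held a half-site with the letters GTTGCC that began 26 bases before the start, a half-site on the other strand 42 bases before it and another at 189 bases. In Lrrc34 a GTTGCC half-site began 50 bases before the start. In Lrrc10b a full motif that contains GTTGCC began 154 bases before it. Lrrc55 had half-sites of looser letters only, and the RefSeq start used for it lies upstream of the GENCODE gene. Lrrc49 held a full motif 41 bases before the start and Lrrc56 held GTTGCC half-sites at 71 and 164 bases. Both genes have another RefSeq start: in the window of that of Lrrc49 a GTTNCC half-site began 143 bases before it, and that of Lrrc56 (200 bases at chr7:141193930-141194129, plus strand) held no match. The half-site as such is frequent: in the window from 250 bases before to 50 after the start, GTTNCC was in 28 of the 47 Lrrc genes with a promoter entry (59.6%) and in 48.8% of all 27025 genes. GTTGCC was in 14 of the 47 (29.8%) and in 14.1% of all genes, and GTNNCNNNNGNNAC in 8 (17.0%) and in 8.13%. All 4 genes called lower held GTTNCC, 3 held GTTGCC and 1 held the full motif. Of the 7 Lrrc genes with an RFX2 peak and a promoter entry, 6 held GTTNCC, 5 held GTTGCC and 3 held the full motif. The full motif was searched only with the spacing in its letters. Inverted repeats of another spacing, such as GTTGCCtagcaac in Lrrc43, were not sought. These are matches of letters and no record of binding.

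Beyond the 4, further Lrrc genes were lower by less than 2-fold. At an adjusted p at or under 0.05 with no limit on the fold, 9 of 51 were lower, against 7.31% of all genes, and none was higher, against 3.48% of all genes. Lrrc51 was at 259, 278, 180, 243 and 295 CPM in wild type and at 98.1, 192, 104 and 123 CPM in Rfx2-/- testis. Only Rfx2-/- replicate 2 reached into the wild type range, at its lower end. The difference was 1.94-fold (log2 fold change -0.95, SE 0.22, adjusted p 0.0150), and without that library it was -1.21 on the log2 scale and passed both limits (adjusted p 1.24e-04).

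Lrrc9 was at 279 to 435 CPM in wild type and at 208 to 257 CPM in the mutants (log2 fold change -0.68, SE 0.16, adjusted p 0.0160). Lrrc27 was at 543 to 728 CPM and at 396 to 472 CPM (log2 fold change -0.50, SE 0.14, adjusted p 0.0420). Lrrc45, which encodes a protein of the fibres that link the centrioles, was at 14.4 to 17.2 CPM and at 6.95 to 13.6 CPM (log2 fold change -0.66, SE 0.19, adjusted p 0.0402). Lrrc20 was at 5.65 to 7.10 CPM and at 4.02 to 5.04 CPM (log2 fold change -0.54, SE 0.16, adjusted p 0.0479). In each of these 4 genes no mutant library reached the wild type range.

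Counting separation alone, the mutant libraries lay wholly below the wild type ones in 9 of the 51 Lrrc genes, against 9.7% of all genes, and wholly above them in 1, against 6.16%. The 9 were the 4 called genes with Lrrc9, Lrrc20, Lrrc27, Lrrc45 and Lrrc58, and the 1 was Lrrc56. Without wild type replicate 3 the first count was 19 of 51, where the share of all genes was 13.6%, and the count above stayed at 1, against 8.88%. Leaving out a library can only keep or raise such counts, and no other library was left out singly for them. Wild type replicate 3 was chosen after seeing the data. It was the lowest wild type library in 30 of the 51, against 31.9% of all genes. Its removal therefore favours a higher count for the Lrrc genes than for all genes. With Rfx2-/- replicate 2 left out as well, 19 lay below, against 16.6% of all genes, and 4 above (Lrrc56, Lrrc66, Lrrc8c and Lrrc8d), against 12.4%. Lrrc28, Lrrc46, Lrrc51, Lrrc57 and Lrrc8b were among the 19. In all, 34 of the 51 fold changes were below 0, against 46.9% of all genes, and their median was -0.15 on the log2 scale against 0.03 over all genes. The summed level of the 59 Lrrc genes was 4962 to 6876 CPM in wild type and 4096 to 5015 CPM in Rfx2-/- testis, and the 2 ranges met through wild type replicate 3.

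**Figure D3:**
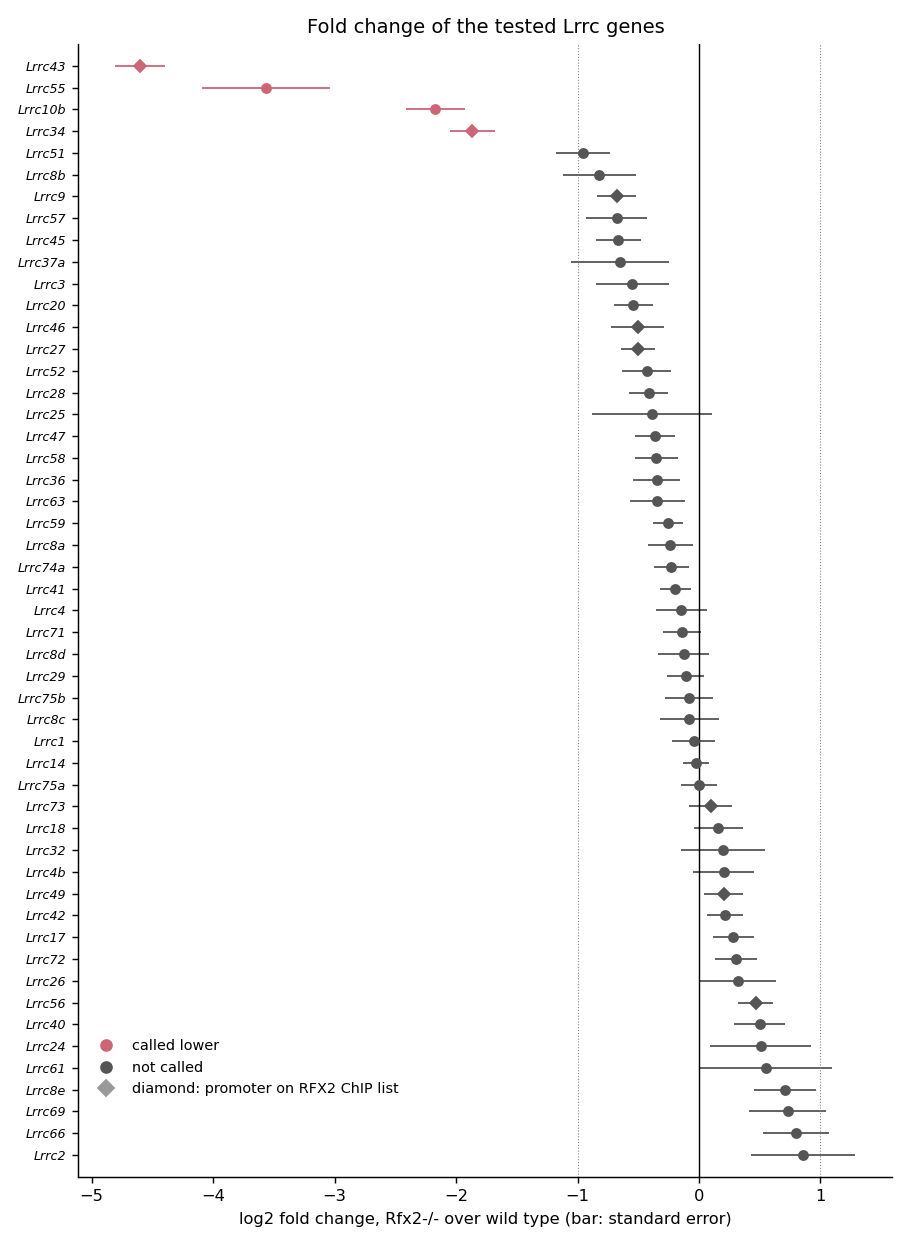
Log2 fold change of Rfx2-/- over wild type for the 51 Lrrc genes tested, with the standard error of the fit as a bar and dotted lines at a 2-fold change. Red marks the 4 genes called lower, and diamonds mark the 8 genes on the study's list of promoters with an RFX2 peak, which run from -4.60 (Lrrc43) to 0.47 (Lrrc56).

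RFX2 itself was mapped by the study in dissociated germ cells of wild type mice at postnatal day 21 by chromatin immunoprecipitation, and 8 Lrrc genes were on its list of genes with a promoter peak: Lrrc9, Lrrc27, Lrrc34, Lrrc43, Lrrc46, Lrrc49, Lrrc56 and Lrrc73. Of these, 2 were called lower (Lrrc43 and Lrrc34), and 106 of the 953 tested genes on the whole list were. A further 2, Lrrc9 and Lrrc27, passed the adjusted p of 0.05 as given above. Lrrc46 was at 584 to 769 CPM in wild type and at 272 to 615 CPM in the mutants, where replicate 2 was the lowest (log2 fold change -0.50, SE 0.22, adjusted p 0.160). The remaining 3 were not lower. Lrrc49 was at 83.1 to 124 CPM and at 90.8 to 126 CPM (log2 fold change 0.20, SE 0.16, adjusted p 0.425), and Lrrc73 at 55.6 to 80.9 CPM and at 58.2 to 94.3 CPM (0.10, SE 0.18, adjusted p 0.758). Of the 43 tested Lrrc genes not on the list, Lrrc10b and Lrrc55 were called lower.

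Lrrc56, whose protein is needed for the transport of dynein arms into motile cilia, was the bound gene at the other end. It was at 207, 197, 167, 179 and 210 CPM in wild type and at 274, 239, 235 and 314 CPM in Rfx2-/- testis, with each mutant library above each wild type one. The difference was small and missed the adjusted limit (1.38-fold, log2 fold change 0.47, SE 0.14, adjusted p 0.0555). RefSeq gives Lrrc56 2 starts, and the upstream one, not the one printed above, adjoins Hras: the GENCODE start of Lrrc56 lies 152 bases from that of Hras on the other strand, which was on the same list of bound promoters. Hras was at 29.1 to 32.4 CPM in wild type and at 35.9 to 64.7 CPM in the mutants (log2 fold change 0.64, SE 0.17, adjusted p 0.0333), so both genes of this pair had their mutant libraries above the wild type range. Hras was looked at after the values of Lrrc56 had been seen.

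Some Lrrc genes share exon sequence with a gene on the other strand, and use of strand in counting was not stated. Exons of 25 of the 59 overlapped another gene on either strand, and those of 16 overlapped a protein coding one. The stretches shared with protein coding genes ran from 48 bases (Lrrc43) to 2853 bases (Lrrc8a, with Gm28035 on the same strand). Lrrc56 and Lmntd2 share 64 bases at their 3′ ends, and Lmntd2 was called lower. Lmntd2 was at 148, 165, 98.8, 149 and 172 CPM in wild type and at 38.4, 16.8, 26.4 and 28.0 CPM in the mutants (log2 fold change -2.42, SE 0.24, adjusted p 3.33e-05).

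Lrrc34 shares 98 exon bases with Lrriq4, itself a gene of leucine-rich repeats, and the 2 genes overlap with their 5′ ends. Lrriq4 was at 63.0, 61.5, 42.5, 66.5 and 73.9 CPM in wild type and at 13.0, 10.2, 11.5 and 13.2 CPM in Rfx2-/- testis, without overlap (5.12-fold lower, log2 fold change -2.36, SE 0.18, adjusted p 2.79e-06). Both genes of this pair were thus called lower. Lrrc43 shares 48 exon bases with Il31, for which the counts gave a log2 fold change of 0.40 (adjusted p 0.179). Lrrc51 shares 600 with Lamtor1, a lysosomal signalling gene, which gave a log2 fold change of 0.27 (adjusted p 0.395). Lrrc55 overlaps the antisense genes Gm13713 and Gm13716. According to the authors' methods, reads on exons of different genes were discarded. Lrriq4, Lmntd2, Il31 and Lamtor1 had rows in the count table, while Gm13713 and Gm13716 had none. The part of shared stretches in these values was not tested.

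**Figure D4:**
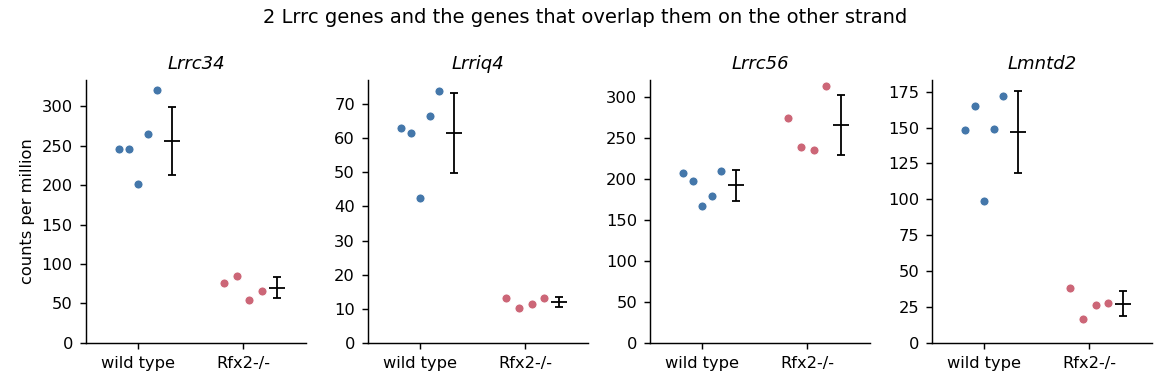
CPM by library of Lrrc34 and Lrriq4, and of Lrrc56 and Lmntd2, each pair lying on opposite strands with a short shared stretch of exon (wild type blue, n = 5, Rfx2-/- red, n = 4, bars mean and SD). Lrrc34 and Lrriq4 are both lower in Rfx2-/- testis, while Lmntd2 is lower and the mutant points of Lrrc56 lie above its wild type points.

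The 5 LRRC8 genes encode the volume-regulated anion channel, in which LRRC8A is required and the others set the properties of the pore. Lrrc8b, Lrrc8c and Lrrc8d lie next to each other on chromosome 5. None of the 5 was called, and 4 of the 5 fold changes were below 0, against 46.9% of all genes. Per length Lrrc8b stood out in the testis at 95.5 ± 18.2 RPKM in wild type, against 5.51 ± 0.360 for Lrrc8a, 5.10 ± 1.04 for Lrrc8d, 3.20 ± 0.194 for Lrrc8c and 0.320 ± 0.114 for Lrrc8e. Lrrc8b was at 637, 690, 439, 682 and 764 CPM in wild type and at 494, 153, 469 and 339 CPM in Rfx2-/- testis. Wild type replicate 3 lay inside the mutant range and Rfx2-/- replicate 2 far below it (log2 fold change -0.82, SE 0.30, adjusted p 0.10). Lrrc8b was also the only Lrrc gene on the study's list of targets of CREM, another transcription factor of spermatids.

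Lrrc8a, Lrrc8c and Lrrc8d gave -0.24 (SE 0.19), -0.08 (SE 0.24) and -0.13 (SE 0.21) on the log2 scale. In all 3 the lowest library was Rfx2-/- replicate 2, at 12.2, 10.1 and 13.4 CPM against 22.5 to 28.8 CPM in the other mutants, and without it the sign turned for Lrrc8c (0.16) and Lrrc8d (0.05). Lrrc8e, the rarest subunit, was at 0.996 to 2.14 CPM in wild type and at 2.03 to 2.29 CPM in the mutants (log2 fold change 0.71, SE 0.25, adjusted p 0.0985).

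Among the auxiliary subunits of potassium channels, Lrrc55 fell as described, Lrrc52 and Lrrc26 did not pass the test, and Lrrc38, with 12 counts in all, was not tested. Lrrc52, which accompanies the sperm channel KCNU1, was at 28.0, 28.0, 14.3, 22.4 and 23.7 CPM in wild type and at 14.5, 16.2, 21.3 and 17.1 CPM in Rfx2-/- testis. Only wild type replicate 3 was not above the mutants, and it lay just below all of them (log2 fold change -0.43, SE 0.20, adjusted p 0.192). Kcnu1 itself, the pore of that channel, was at 66.5 to 108 CPM and at 48.4 to 72.2 CPM (log2 fold change -0.47, SE 0.18, adjusted p 0.116). Lrrc26 was at 0.465 to 1.07 CPM and at 0.597 to 1.11 CPM (log2 fold change 0.32, SE 0.32), and Kcnma1, the pore with which Lrrc26 and Lrrc55 assemble, gave -0.27 (SE 0.21, adjusted p 0.412).

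Of the 4 Lrrc genes of centrosome, cilium and tubulin, none was called, and Lrrc45 passed the adjusted p of 0.05. Lrrc49 is a subunit of the tubulin polyglutamylase that adds glutamate chains to axonemal tubulin. Of its partners in that complex, the catalytic subunit Ttll1 was called lower, at 62.4, 44.0, 57.5, 36.6 and 62.8 CPM in wild type and 27.4, 21.3, 25.5 and 28.6 CPM in the mutants (log2 fold change -1.03, SE 0.18, adjusted p 2.82e-03). The genotypes did not overlap, but the value lay close to the 2-fold limit, and the call ended, with 0 partners lower, when any of wild type replicates 1, 3 and 5 or Rfx2-/- replicates 2, 3 and 4 was left out. Tpgs1 (-0.19, adjusted p 0.654), Tpgs2 (-0.33, adjusted p 0.158) and Nicn1 (0.51, adjusted p 0.111) were not called. The centrosomal linker genes Crocc and Cep250, whose products meet LRRC45, gave -0.48 (adjusted p 0.246) and -0.10 (adjusted p 0.866). Both were lowest in Rfx2-/- replicate 2. Crocc was at 8.89 CPM there and at 19.0 to 26.4 CPM in the other mutants, against 23.9 to 31.6 CPM in wild type. Cep250 was at 13.6 CPM there and at 47.2 to 72.6 CPM in the other mutants, against 43.9 to 61.7 CPM in wild type. In all, 1 of the 8 partners was called lower and 7 of 8 were below 0, where 3.68% and 46.9% of all genes were. The 7 include Cep250, which was near 0 and low in Rfx2-/- replicate 2 alone among the mutants.

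The 8 Lrrc genes used by most cell types (Lrrc14, Lrrc40, Lrrc41, Lrrc42, Lrrc47, Lrrc57, Lrrc58 and Lrrc59) gave no call, and their median log2 fold change was -0.23. Their values ran from -0.68 for Lrrc57 (adjusted p 0.105) to 0.50 for Lrrc40 (adjusted p 0.151). Lrrc57 was at 116, 130, 67.4, 119 and 147 CPM in wild type and at 65.5, 104, 71.3 and 48.4 CPM in Rfx2-/- testis, where wild type replicate 3 and Rfx2-/- replicate 2 were the libraries that crossed. With both left out, a setting chosen after seeing the data, Lrrc57 was called lower (-1.05, adjusted p 6.67e-05). Lrrc58 was separated between genotypes by a narrow gap, at 76.3 to 84.2 CPM against 40.0 to 75.7 CPM (log2 fold change -0.35, SE 0.17, adjusted p 0.211).

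The Lrrc genes of neurons, of immune cells and matrix and of muscle were at low levels here. The neuronal ones summed to 7.79 to 11.3 CPM in wild type and 7.06 to 10.4 CPM in the mutants, and the immune and matrix ones to 6.54 to 8.57 CPM and 6.60 to 9.62 CPM. None was called. Of the 5 muscle genes, Lrrc2 alone was tested, at 0.86 on the log2 scale (SE 0.43, adjusted p 0.216), and Lrrc14b had no count.

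Among the 5 Lrrc genes with higher levels and an unadjusted p below 0.05, Lrrc40, Lrrc66 and Lrrc69 remain beside Lrrc56 and Lrrc8e. Lrrc66 was at 1.55 to 2.88 CPM in wild type and at 2.07 to 4.75 CPM in Rfx2-/- testis (log2 fold change 0.80, SE 0.27, adjusted p 0.0844). Lrrc69 was at 14.2 to 38.7 CPM and at 31.4 to 86.7 CPM (log2 fold change 0.73, SE 0.32, adjusted p 0.164), where Rfx2-/- replicate 2 was the highest of the 9. The genotypes overlapped in all 3 genes. Lrrc61 varied most among wild type animals, at 62.3, 31.0, 8.37, 6.63 and 51.7 CPM, a coefficient of variation of 78.3% against a median of 16.9% over the 51 genes, and the mutants were at 32.9 to 60.5 CPM. Lrrc18, among the most abundant, was at 265 to 460 CPM and at 342 to 548 CPM (log2 fold change 0.16, SE 0.20, adjusted p 0.629).

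For comparison, 39 other genes of leucine-rich repeat proteins without the symbol Lrrc were tested, and 3 were called. Of the 39, 2 were lower, where 3.68% of all genes were, and 1 was higher, where 0.826% were. These were Lrriq4, given above, Ppp1r42, which encodes a testis protein of the centrosome and manchette and was lower (73.2 ± 17.8 against 26.8 ± 11.1 CPM, log2 fold change -1.45, SE 0.27, adjusted p 4.19e-03), and the synaptic adhesion gene Lrrtm1, which was higher (1.02 ± 0.189 against 3.10 ± 1.11 CPM, log2 fold change 1.62, SE 0.28, adjusted p 2.63e-03). Ppp1r42 overlapped between genotypes through wild type replicate 3 (41.7 CPM) and Rfx2-/- replicate 2 (43.4 CPM), and its call held when either of these was left out. Leaving out any other library ended it, at log2 fold changes of -1.29 to -1.43 and adjusted p of 0.0108 to 0.0246 by edgeR. The call of Lrrtm1 ended without wild type replicate 5 (1.59, adjusted p 0.0103) or Rfx2-/- replicate 4 (1.53, adjusted p 0.0108). The median of the 39 was -0.03 on the log2 scale. The difference between the 2 sets of genes was not tested.

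The 2 libraries that stood apart bore on many of these values. Wild type replicate 3 was the lowest wild type library in 30 of the 51 Lrrc genes, against 31.9% of all genes. The 12 markers of elongating spermatids, protamines and proteins of the sperm tail among them, were also low in it: their summed level was 11940 CPM there, 17580 to 23450 CPM in the other wild type libraries and 10230 to 13940 CPM in Rfx2-/- testis. All 12 had log2 fold changes below 0 (median -0.66), of which 5 passed the adjusted p of 0.05 and none was called. All 8 meiotic prophase markers were above 0 (median 0.62, none called), with a sum of 1028 to 1191 CPM in wild type and 1203 to 2635 CPM in the mutants. The highest sum was that of Rfx2-/- replicate 2, and without this library the median of the 8 was 0.26. Summed levels of the other markers overlapped between genotypes. They were 151 to 179 CPM in wild type and 141 to 215 CPM in Rfx2-/- testis for spermatogonia, 5304 to 7030 and 5236 to 8849 CPM for late spermatocytes and 1196 to 1800 and 1326 to 1930 CPM for round spermatids. Among somatic cells they were 1082 to 1350 and 1111 to 1586 CPM for Sertoli cells, 740 to 935 and 715 to 1079 CPM for Leydig cells, 202 to 229 and 154 to 293 CPM for peritubular cells and 94.6 to 131 and 109 to 179 CPM for macrophages. None of these markers was called and none was without counts. The part of these cell types in the Lrrc values was not tested. Lrrc43, Lrrc55, Lrrc10b and Lrrc34 were called without wild type replicate 3 and without Rfx2-/- replicate 2, singly and together.

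Rfx2-/- replicate 2 departed from the other mutants by transcript length. Relative to their mean, its 11 Lrrc genes under 2 kb of exon had a median of 0.39 on the log2 scale, the 22 from 2 to 4 kb -0.01 and the 18 of 4 kb and over -0.24, of which 15 were below 0. Over all genes the same medians were 0.61, 0.06 and -0.54. Lrrc37a, the longest Lrrc gene, was at 171 to 281 CPM in wild type, at 29.6 CPM in this library and at 138 to 214 CPM in the other mutants. Lrrc46, though short, was at -1.04 on this scale and ran against the trend. Without this library the log2 fold change was nearer 0 for Lrrc46 (-0.30), Lrrc37a (-0.31), Lrrc58 (-0.19), Lrrc8a (-0.06), Lrrc40 (0.20), Lrrc69 (0.34), Lrrc18 (0.05) and Lrrc73 (0.01), none of which was called with or without it. Without wild type replicate 3, Lrrc18 gave 0.08, Lrrc73 0.06 and Lrrc61 0.34. With the length trend removed, the 4 called genes stayed called and Lrrc51 joined them (-1.17, adjusted p 7.57e-05).

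**Figure D5:**
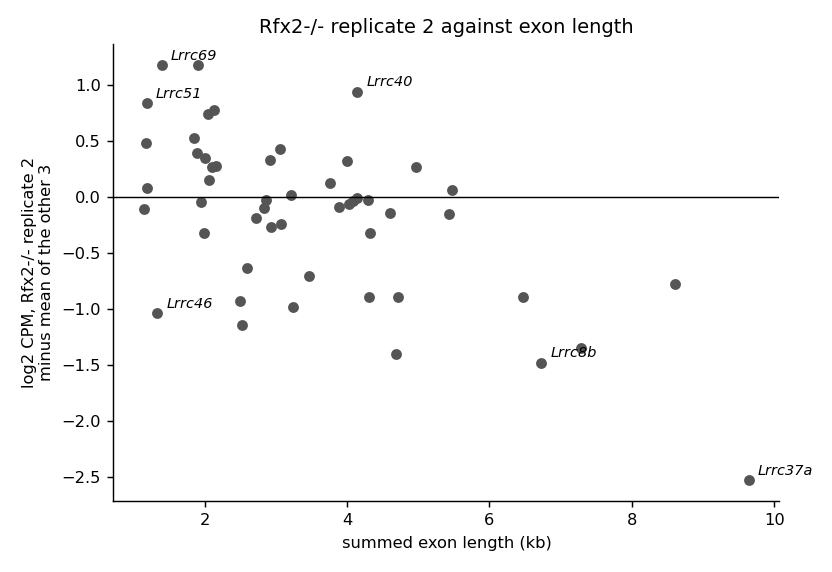
Level of each of the 51 tested Lrrc genes in Rfx2-/- replicate 2, as log2 CPM minus the mean of the other 3 mutant libraries, against summed exon length in kb. Values tend to fall with length, with Lrrc69 at 1.17 and Lrrc37a at -2.53, and with Lrrc46 low and Lrrc40 high for their lengths.

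The 8 Lrrc genes that were not tested had 10 to 107 counts in all 9 libraries together: Lrrc31 (10), Lrrc38 (12), Lrrc15 (25), Lrrc19 (47), Lrrc4c (53), Lrrc74b (56), Lrrc7 (68) and Lrrc39 (107). The filter on low counts left them out, and no difference between genotypes was tested for them. Lrrc31 and Lrrc38 lay just inside the limit for members, and Lrrc10 (9), Lrrc3b (9), Lrrc30 (5) and Lrrc14b (0) just outside it.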

How the data were processed

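The authors deposited a table of raw read counts per Ensembl gene for 9 testis libraries, 1 per mouse, in whole numbers without normalization. According to their methods and the submitters' processing notes, reads from TruSeq libraries on an Illumina HiSeq were base-called with CASAVA 1.8.2, aligned to GRCm38 with STAR 2.4 and counted over exons with featureCounts 1.4.6. Reads with several positions or on exons of different genes were discarded. This lowers genes with close copies and can lower genes that share exon bases. Use of strand was not stated. Genotypes came from the labels. Replicate numbers were given in order of deposition and do not pair mice.

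From these counts, genes kept by filterByExpr (15613) were tested with the edgeR 4.0.16 quasi-likelihood test (R 4.3.3, TMM factors, genotype as the only factor), with Benjamini-Hochberg adjustment over all of them. A gene was called at an adjusted p at or under 0.01 and a change over 2-fold. CPM values are TMM-scaled. RPKM divides them by the merged exon length in GENCODE M21. A count of 0 allows up to 3 counts, 0.0995 to 0.234 CPM by library, for counting error only. The test was checked on simulated counts. Alternatives were DESeq2 1.42.0, other scaling, filters and limits, a length correction, thinning of the deepest library and leaving out libraries. Membership of the RFX2 peak list and the CREM list was taken from the study's supplementary tables, as a label only. Genes described in full were those called in any setting, on the peak list, in the LRRC8, potassium channel or cilium group, separated between genotypes with an adjusted p at or under 0.05, or among the 5 of highest level. Lrrc28, Lrrc37a, Lrrc40, Lrrc58, Lrrc61, Lrrc69 and the neighbouring genes were added after their values were seen. The members, lists and groups were chosen with earlier results of these data known.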

Additional observations from a re-analysis of the deposited data

Results flagged for a closer look

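Among the 29 Lrrc genes described in full, 58 groups of 4 or 5 libraries were searched for a single library far from the rest by Dixon's gap test, and 4 had one. Chance gives about 1 in 20, or 2.9 of 58, for genes picked without regard to their values. Some of the 29, Lrrc40 among them, were added after their values were seen, so this rate is only a rough guide. Lrrc40 was at 56.9 CPM in Rfx2-/- replicate 2 and at 26.6 to 31.5 CPM in the other mutants. Lrrc8a was at 12.2 CPM in the same library and at 22.5 to 23.1 CPM in the others. Lrrc8d was at 32.9 CPM in wild type replicate 3 and at 21.2 to 22.3 CPM in the other wild type libraries. Lrrc8e was at 2.14 CPM in wild type replicate 4, within the mutant range of 2.03 to 2.29 CPM, and at 0.996 to 1.30 CPM in the other wild type libraries.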

How the results depend on the processing

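Over 19 alternatives to the fit, Lrrc43, Lrrc55, Lrrc10b and Lrrc34 were called lower in every one. With an adjusted p of 0.05 and no fold limit, 9 Lrrc genes were lower. With wild type replicate 3 and Rfx2-/- replicate 2 both left out, a setting chosen after seeing the data, 6 were lower and 1, Lrrc66 (1.001, adjusted p 0.00932), was higher, beside 729 lower and 178 higher over all genes. Leaving out 1 library at a time gave 4 to 5 lower and 0 higher. For all genes the counts were 272 lower and 29 higher when tested against 2-fold, 1142 and 544 at an adjusted p of 0.05, 262 higher with unadjusted p and 211 higher with DESeq2, and 447 to 632 lower and 92 to 175 higher without 1 library. The sign turned for Lrrc8c with total counts (0.042) and with the length trend removed (0.010), for Lrrc73 with the length trend removed (-0.0096), and, with both libraries left out, for Lrrc8c (0.20), Lrrc8d (0.19), Lrrc73 (-0.066) and Lrrc18 (-0.068). Without 1 library Lrrc8c ran from -0.21 to 0.16 and Lrrc8d from -0.19 to 0.052. No other fully described Lrrc gene changed sign. Of the partner genes, 0 were lower with total counts, against 2-fold and with both libraries left out, and 0 to 1 without 1 library. Of the other leucine-rich repeat genes, 1 was lower and 0 higher against 2-fold, 4 were lower at 0.05, and 1 to 2 were lower and 0 to 1 higher without 1 library. Of the elongating spermatid markers, 3 were lower with DESeq2, with unadjusted p and with the length trend removed, 5 at 0.05 and with both libraries left out, and 0 to 4 without 1 library. Sertoli markers gave 1 higher with total counts and at 0.05 and 0 to 1 without 1 library. Peritubular markers gave 0 to 1 higher without 1 library. The cause of these changes was not tested. No paired analysis was possible because the replicate numbers follow the order of deposition. Depth limits the 8 untested genes and Lrrc55, whose mutant libraries held as little as 1 read.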

Other observations

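Lrrc56 was not the only Lrrc gene on the RFX2 peak list whose start lies within 1000 bases of that of a gene on the other strand that is also on the list. The starts of Lrrc46 and Mrpl10, a mitochondrial ribosomal protein gene, are 153 bases apart. Mrpl10 was at 38.4 to 44.4 CPM in wild type and at 33.2 to 46.2 CPM in Rfx2-/- testis (log2 fold change -0.04, SE 0.13, adjusted p 0.853 by edgeR), beside -0.50 for Lrrc46 (SE 0.22, adjusted p 0.160). Lrrc27 and the kinase gene Stk32c overlap by 319 bases at their starts. Stk32c was at 2.99 to 6.58 CPM in wild type and at 1.83 to 3.06 CPM in Rfx2-/- testis (log2 fold change -0.82, SE 0.26, adjusted p 0.0664), beside -0.50 for Lrrc27 (SE 0.14, adjusted p 0.0420). These pairs were picked after the values had been seen, and the differences within them were not tested.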
